A study of Mus musculus with 21 samples.

Results

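Cortical granules are secretory vesicles that lie beneath the plasma membrane of the mature oocyte and release their content at fertilization. The content includes ovastacin, the metalloprotease encoded by *Astl*, which cleaves the zona pellucida protein ZP2 so that further sperm no longer bind. Small GTPases of the RAB3 and RAB27 families sit on the membrane of secretory vesicles in their GTP-bound form and recruit effectors for transport, docking and fusion with the plasma membrane. The members described here were a given list of 7 genes, *Rab3a*, *Rab3b*, *Rab3c*, *Rab3d*, *Rab27a*, *Rab27b* and *Astl*, of 54232 genes counted, and each was found once by its gene symbol. The list was drawn up with measurements of these libraries already known. The levels of the members and their differences between groups are therefore given as a description, and their p-values are not printed. Where a member is said to be called, this describes its place in a fit of all genes and is not independent support.

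The study examined how oocytes respond to a reduced dose of *Kif11*, the kinesin that drives spindle bipolarization. RNA was sequenced in 21 libraries, each made of 3 fully grown oocytes at the germinal vesicle stage from hormone-primed females of 3 to 4 months on a C57BL/6 background. *Kif11* wt/fl oocytes, with a wild-type and a floxed allele and no Cre, were the control (4 libraries). The wt/fl Spo11-Cre oocytes (5 libraries) add a Cre that is driven in germ cells by the promoter of the meiotic gene *Spo11*. This Cre deletes the floxed allele. The fl/del oocytes (4 libraries) carry a floxed and a constitutively deleted allele without Cre, and their deletion is present in every cell of the mouse. The fl/del Spo11-Cre oocytes (4 libraries) carry the same alleles together with Spo11-Cre. The fl/fl oocytes have both alleles floxed and a Cre under the promoter of an oocyte gene, either Gdf9-Cre or Zp3-Cre (2 libraries each). The libraries analysed hold no fl/fl oocytes without Cre, so that the fl/fl genotype, the Cre driver and the set of libraries cannot be told apart. A mouse gave 1 or 2 libraries by the study's methods, and the spread between libraries is partly that within a mouse. In each wt/fl and fl/del group, with or without Spo11-Cre, replicates 1 and 2 share a library name prefix, as do replicates 3 and 4. The labels do not say whether a prefix stands for a mouse. The letter after the prefix is A in these groups without Cre and B or C with Spo11-Cre, and its meaning is not given.

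Levels are CPM, the reads of a gene over all its exons scaled to a library total of 1000000. Totals ranged from 7205010 counts, in fl/del replicate 3, to 18454549. Levels of different genes are compared only in the authors' TPM, which also divides by transcript length. Both are shares of the RNA in a pool of 3 oocytes. Fewer oocytes with an mRNA and less of it per oocyte, or more of other mRNA, cannot be told apart. *Kif11*, the targeted gene, had 34.5 ± 8.46 CPM in wt/fl (SD, n = 4), 24.6 ± 5.04 in wt/fl Spo11-Cre (n = 5), 11.9 ± 3.06 in fl/del (n = 4) and 1.78 ± 0.685 in fl/del Spo11-Cre (n = 4). It had 5.003 ± 0.153 CPM with Gdf9-Cre and 6.11 ± 2.60 with Zp3-Cre (n = 2 each). Of 12 oocyte marker genes, 11 exceeded 100 CPM in every library. Of 18 genes of follicle somatic cells, 13 had a mean under 1 CPM and 1 was at 0 in every library. The list summed to between 383 and 529 CPM per library, most of it from *Serpine2* (mean 381 CPM) and *Cyp19a1* (66.1 CPM). The other 16 genes summed to between 5.08 and 22.3 CPM, with the highest sum in a Gdf9-Cre library. Of 8 blood and immune genes, 3 were at 0 in every library and 6 had a mean under 1 CPM, while *C1qb* had a mean of 50.01 CPM and *Pecam1* of 23.5 CPM. The part of these cell types in the results was not tested.

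The coding sequences show what the Rab members share and how long their identical coding stretches are. They are taken from the GENCODE vM21 transcripts on GRCm38, the build of the authors' alignment. The last 10 codons with the stop are printed 5′ to 3′ for 5 Rab genes. The capitals mark the 2 cysteine codons next to the stop, to which a lipid is attached that holds a Rab protein on the vesicle membrane.
Rab3a: gcgccacctcatcaggatTGTgccTGCtga
Rab3b: cctctgctgcagcagaacTGCtctTGTtag
Rab3c: cctccaccacagcccaacTGTggcTGCtaa
Rab3d: cccccacagccgagcagcTGCagcTGTtag
Rab27a: gagaaggagaaggggttgTGTggcTGTtga

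In all 5 genes, a pair of cysteine codons was separated by 1 other codon, while the codons before them differed. The stretch that encodes the phosphate-binding loop of the GTPase is shown for comparison. It is 8 codons long, and the capitals mark the codons of the glycine at its start and of the glycine, lysine and threonine at its end.
Rab3a: GGGaacagcagcgtgGGCAAAACC
Rab3b: GGCaacagcagcgtcGGGAAGACC
Rab3c: GGCaatagcagcgtgGGCAAAACA
Rab3d: GGGaacagcagcgtgGGCAAGACA
Rab27a: GGAgactctggggtaGGGAAGACC

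*Rab3d* shared 22 of 24 bases with *Rab3a* here and 14 of 24 with *Rab27a*. The lowest match within the Rab3 genes was 19 of 24 bases, between *Rab3b* and *Rab3c*. The longest run of identical coding bases between any pair of Rab members was 33, between *Rab3b* and *Rab3d*, against a read length of 150 bp. Exon bases outside the coding sequence also enter the counts and were not compared. How far the reads of these genes can be told apart was not tested. For *Astl*, the 11 codons of the zinc-binding site of the protease are shown, with the codons of the 3 histidines and the catalytic glutamate in capitals.
Astl: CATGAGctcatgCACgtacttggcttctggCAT

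On GRCm38, *Rab3d* (ENSMUSG00000019066) lies at chr9:21907491-21918192 on the minus strand, with 5 exons and no exon base shared with another gene. *Rab3a* (ENSMUSG00000031840) lies at chr8:70754679-70758677 on the plus strand and shares 29 exon bases with *Mpv17l2* on the other strand. *Rab3b* (ENSMUSG00000003411) lies at chr4:108879063-108943324 on the plus strand and shares 317 of its 3524 exon bases with an antisense gene, *8030443G20Rik*. The counting is not stated to use strand, so reads from these shared bases cannot be assigned to either gene. *Rab3c* (ENSMUSG00000021700) lies at chr13:110054187-110280996 on the minus strand and shares no exon base. *Rab27a* (ENSMUSG00000032202) lies at chr9:73044854-73097629 on the plus strand and shares 149 exon bases with a processed pseudogene, *Gm27186*, on the same strand. *Astl* (ENSMUSG00000050468) lies at chr2:127338639-127357651 on the plus strand, with 9 exons and no shared exon base.

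In the oocyte, *Astl* and *Rab3b* were the most abundant of the 7 genes. Over the 21 libraries, the mean level was 142 ± 39.4 TPM for *Astl* (SD), 124 ± 24.6 for *Rab3b*, 48.4 ± 16.6 for *Rab3d*, 29.6 ± 5.97 for *Rab3a*, 6.63 ± 1.47 for *Rab27a* and 0.307 ± 0.227 for *Rab3c*. *Astl* and *Rab3b* did not differ beyond their spread, with *Astl* the higher in 12 of 21 libraries. *Rab3d* was above *Rab3a* within each of the 21 libraries, although their ranges overlapped. The ranges of the other neighbours in this order did not overlap. By its wt/fl mean, *Astl* stood at rank 1158 of all genes, *Rab3b* at 1456, *Rab3d* at 2429 and *Rab3a* at 3611.

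*Rab27b* was at the detection limit. It had 2 counts in wt/fl Spo11-Cre replicate 3 (0.108 CPM) and 0 in the other 20 libraries. There a count of 0 allows a level of up to 0.165 to 0.416 CPM (3 counts per library, counting error only). This limit takes each count as an independent event. In the authors' other count table, where counts were lower (median ratio 1.95), the 2 counts were 1. The limit may therefore be too low. The other 6 members had a count above 0 in at least 3 libraries and entered the fits. *Rab27a*, whose product recruits effectors such as melanophilin and synaptotagmin-like proteins, was thus the only member of its pair with a measurable level.

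**Figure D1:**
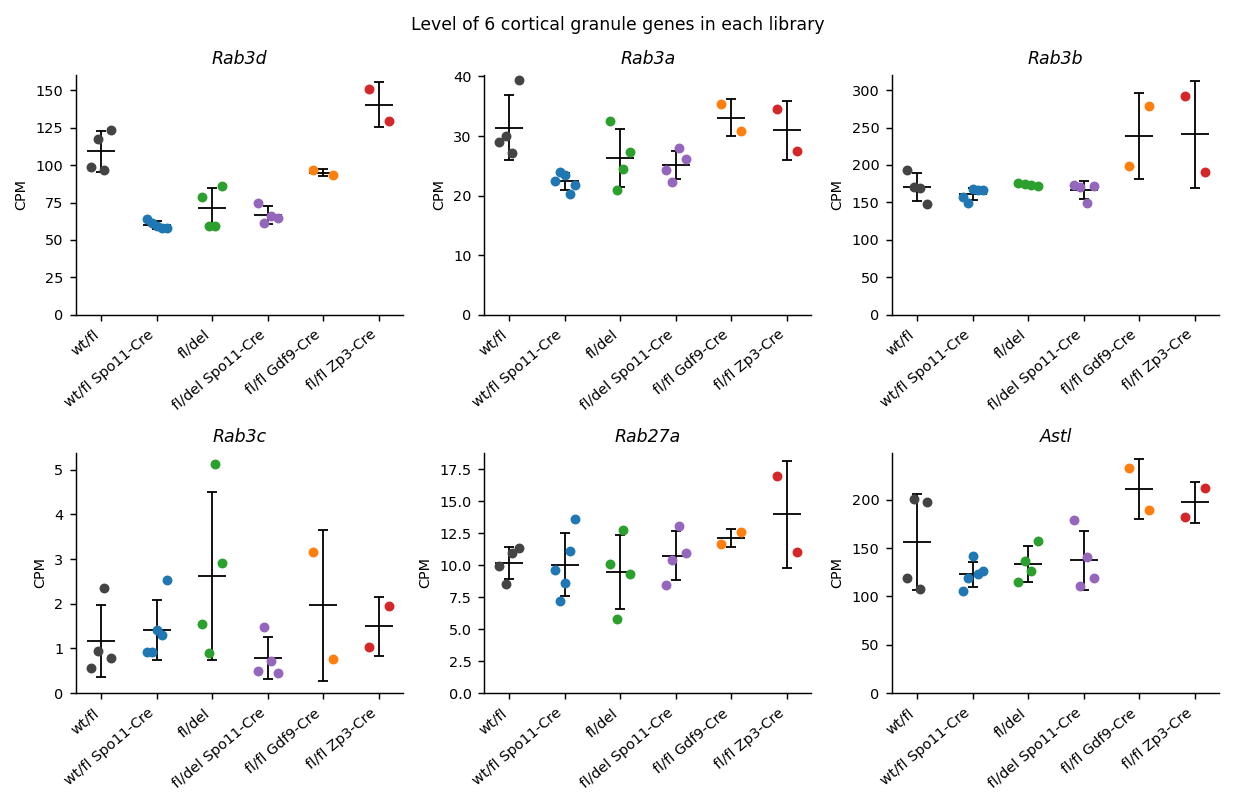
CPM of 6 genes (one panel each, y axis from 0) in the 21 libraries, by group on the x axis. Points are libraries, the horizontal mark is the mean and the bar the SD. For Rab3d, the highest library of wt/fl Spo11-Cre, fl/del and fl/del Spo11-Cre (86.4 CPM) lies below the lowest wt/fl library (96.6 CPM).

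Of the members apart from *Rab3c*, which had few counts, *Rab3d* had the largest log2 fold changes against wt/fl in the Spo11-Cre background. The RAB3D protein is a vesicle GTPase found on the granules of exocrine and other secretory cells. The 4 wt/fl libraries had 98.9, 117, 96.6 and 124 CPM. The 5 wt/fl Spo11-Cre libraries had 64.3, 61.0, 59.3, 58.2 and 58.1 CPM. These lay close together and all below wt/fl, at a mean of 55.1% ± 2.37 of the wt/fl mean (SD, n = 5).

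The fl/del libraries, which carry no Cre, had 79.0, 59.5, 59.3 and 86.4 CPM of *Rab3d*. They were more spread than those of wt/fl Spo11-Cre and again all below wt/fl, at 65.1% ± 12.6 of its mean (SD, n = 4). The fl/del Spo11-Cre libraries had 74.7, 61.1, 66.2 and 64.5 CPM, or 61.1% ± 5.33 of wt/fl (SD, n = 4), without overlap with wt/fl. The 3 groups overlapped each other. The lowest mean of *Rab3d* was that of wt/fl Spo11-Cre, whereas *Kif11* was lowest in fl/del Spo11-Cre. Each of the 3 groups also lay below wt/fl without overlap on TMM-scaled CPM and on TPM.

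In the edgeR model, which was fitted to all genes of the 17 libraries of this background, the log2 fold change of *Rab3d* against wt/fl was −0.84 (SE 0.11) in wt/fl Spo11-Cre, −0.60 (SE 0.12) in fl/del and −0.72 (SE 0.12) in fl/del Spo11-Cre. The 3 comparisons share the 4 wt/fl libraries, so they are not separate measurements of the difference. A gene is called here where its Benjamini-Hochberg adjusted p over all genes was under 0.05. *Rab3d* was the 1 member called in each of the 3 comparisons. Of all 22383 genes tested, 1.33% were called lower and 0.867% higher in wt/fl Spo11-Cre. For fl/del these shares were 0.0134% (3 genes) and 0.00894% (2 genes), and for fl/del Spo11-Cre they were 0.0715% and 0.125%. The call in fl/del was lost without wt/fl replicate 2 (log2 fold change −0.57), wt/fl replicate 4 (−0.53), fl/del replicate 2 (−0.53) or fl/del replicate 3 (−0.52). It was also lost with filterByExpr as the filter (−0.60) and with libraries of a shared name prefix summed (−0.55).

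For fl/del oocytes with against without Spo11-Cre, the log2 fold change of *Rab3d* was −0.11 (SE 0.12), and their libraries overlapped. No member was called in this comparison by edgeR or DESeq2, and 1 of 6, *Rab3c*, had an unadjusted p under 0.05 in edgeR, as did 8.32% of all genes. Here 0.156% of all genes were called higher and 0.0849% lower by edgeR. Adding Spo11-Cre thus went with −0.84 in oocytes with a wild-type allele and −0.11 in oocytes with the deleted allele, and whether these values differ was not tested. In both, the presence of the Cre and the loss of the floxed *Kif11* allele go together and cannot be told apart.

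*Rab3a*, best known for synaptic vesicle release, was lower in wt/fl Spo11-Cre than in wt/fl. The wt/fl libraries had 29.0, 30.1, 27.1 and 39.4 CPM, and the wt/fl Spo11-Cre libraries 22.5, 24.0, 23.5, 20.2 and 21.8 CPM. The groups did not overlap, on any of the 3 scales. *Rab3a* and *Rab3d* were the 2 members without overlap in this comparison, where 2.82% of all genes lay lower without overlap. The log2 fold change of *Rab3a* was −0.46 (SE 0.15), and it was called by DESeq2 but not by edgeR.

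In fl/del, *Rab3a* had 20.9 to 32.6 CPM (mean 26.3 ± 4.94, SD, n = 4), and it had 22.4 to 28.0 CPM in fl/del Spo11-Cre (25.2 ± 2.40, n = 4). Both groups overlapped wt/fl, with log2 fold changes of −0.24 (SE 0.16) and −0.32 (SE 0.16). The only member without overlap in these comparisons was *Rab3d*. The share of all genes that lay lower without overlap was 1.77% for fl/del and 1.96% for fl/del Spo11-Cre.

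*Rab3b*, the most abundant Rab gene of the list, kept close to its wt/fl level in the Spo11-Cre background. It had 193, 170.1, 169.8 and 148 CPM in the wt/fl libraries. In fl/del the 4 libraries lay between 172 and 176 CPM. Their SD was 0.943% of the mean, the lowest such value of any member with counts in any group of 4 or 5 libraries. The mean was 161 ± 8.25 CPM in wt/fl Spo11-Cre (SD, n = 5) and 166 ± 11.6 CPM in fl/del Spo11-Cre (n = 4). The log2 fold changes against wt/fl were −0.05 (SE 0.09), 0.05 (SE 0.09) and −0.04 (SE 0.09) in wt/fl Spo11-Cre, fl/del and fl/del Spo11-Cre.

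*Rab27a* showed no separation between these groups. Its means were 10.2 ± 1.26 CPM in wt/fl (SD, n = 4), 10.0 ± 2.46 in wt/fl Spo11-Cre (n = 5), 9.47 ± 2.88 in fl/del (n = 4) and 10.7 ± 1.897 in fl/del Spo11-Cre (n = 4). The log2 fold changes against wt/fl lay between −0.11 and 0.07, with SEs of 0.24 to 0.26. *Rab3c* was counted 6 to 49 times per library. At this depth its libraries differed up to 5.74-fold within a group, from 0.895 to 5.14 CPM in fl/del, and its fold changes carried SEs of 0.64 to 0.69 on the log2 scale. Its value of −1.69 in fl/del Spo11-Cre against fl/del was not called.

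For *Astl*, the range of the control libraries held the means of the other groups of this background. The wt/fl libraries had 119, 201, 108 and 198 CPM, in which replicates 2 and 4 were high and replicates 1 and 3 low. The wt/fl Spo11-Cre libraries lay between 106 and 142 CPM (mean 123 ± 13.0, SD, n = 5), the fl/del libraries between 114 and 158 (134 ± 18.3, n = 4) and the fl/del Spo11-Cre libraries between 110.4 and 179 (137 ± 30.7, n = 4). Each group overlapped wt/fl. The log2 fold changes were −0.32 (SE 0.13), −0.21 (SE 0.14) and −0.19 (SE 0.14), and none was called. Without wt/fl replicate 3, the value for wt/fl Spo11-Cre was −0.45 and was called. The same 2 control libraries were also the highest in *Rab3d* and *Rab3a*, and 1 of each pair that shares a name prefix was high and 1 low.

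**Figure D2:**
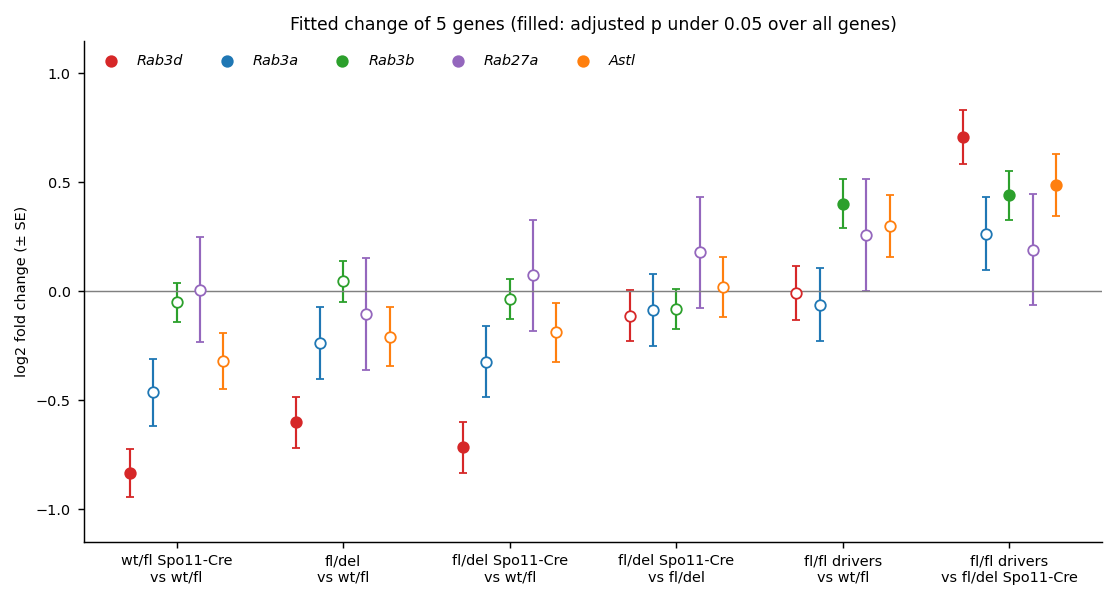
Log2 fold change with its SE from edgeR for 5 genes (y axis) in 6 comparisons (x axis). Filled symbols have an adjusted p under 0.05 over all genes. Rab3d lies at −0.84, −0.60 and −0.72 in the 3 comparisons of the Spo11-Cre background with wt/fl and at 0.71 in the last.

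In the fl/fl oocytes, the means of *Rab3b* and *Astl* were above those of the 4 other groups, and *Rab3d* was near or above its control level. In this part of the data each driver has only 2 libraries, and the model took the mean of both drivers in a fit of all 21 libraries. *Rab3b* had 199 and 279 CPM with Gdf9-Cre and 292 and 191 CPM with Zp3-Cre. The 2 libraries of a driver thus differed by more than the drivers did. Against wt/fl the log2 fold change was 0.40 (SE 0.11). The lower Zp3-Cre library overlapped wt/fl in CPM, while on TPM the 4 fl/fl libraries lay above wt/fl. On TMM-scaled CPM, the fl/fl range (184 to 268) overlapped that of wt/fl (149 to 193). The share of all genes that lay higher without overlap on TPM was not counted.

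*Rab3b* was the 1 member called against wt/fl, where 1.02% of 23225 genes were called higher and 1.77% lower. This call was lost without wt/fl replicate 2 (0.40), replicate 3 (0.41) or replicate 4 (0.34), without Gdf9-Cre replicate 2 (0.28) and without Zp3-Cre replicate 1 (0.27). It was lost as well in the fit of the compared groups alone (0.41), with libraries of a shared name prefix summed (0.39) and with the replicate block (0.37).

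*Rab3d* had 96.5 and 93.2 CPM with Gdf9-Cre and 151 and 130 CPM with Zp3-Cre. The Gdf9-Cre libraries lay just below the lowest wt/fl library, at 86.9% ± 2.10 of the wt/fl mean (SD, n = 2), and overlapped it on TPM. The Zp3-Cre libraries lay above the highest wt/fl library on all 3 scales, at 129% ± 13.9 of its mean (SD, n = 2). The mean of both drivers therefore gave a log2 fold change of −0.01 (SE 0.12) against wt/fl, which hides opposite positions of the drivers. Between the drivers, *Rab3d* was the 1 member without overlap, as 14.6% of all genes lay lower with Gdf9-Cre without overlap at 2 against 2 libraries.

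*Rab27a* had 11.6 and 12.6 CPM with Gdf9-Cre, just above the highest wt/fl library (11.3 CPM), and 16.9 and 10.99 CPM with Zp3-Cre. *Rab3b* and *Rab27a* were the 2 members higher without overlap with Gdf9-Cre than in wt/fl, and both overlapped on TMM-scaled CPM. For this contrast, 11.7% of all genes lay higher and 6.25% lower without overlap. With Zp3-Cre, *Rab3d* was the 1 such member, where 11.1% of all genes lay higher. *Astl* had 233 and 189 CPM with Gdf9-Cre and 183 and 213 CPM with Zp3-Cre, with a log2 fold change of 0.30 (SE 0.14) against wt/fl that was not called. *Rab3a* had 27.5 to 35.3 CPM in the 4 fl/fl libraries, within the range of wt/fl.

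The fl/fl and fl/del Spo11-Cre oocytes both had little *Kif11*, and here 3 members differed. In the fl/fl oocytes *Rab3d* was higher by 0.71 on the log2 scale (SE 0.12), *Astl* by 0.49 (SE 0.14) and *Rab3b* by 0.44 (SE 0.11). All 3 were called, beside 1.21% of all genes called higher and 1.69% called lower. In CPM these were also the 3 members whose libraries did not overlap, against 4.03% of all genes. For *Astl*, the ranges were 183 to 233 and 110.4 to 179 CPM, and they overlapped on TMM-scaled CPM (165 to 222 and 112 to 182).

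The call of *Rab3d* was kept in each of the 8 other settings and 8 fits without 1 library. That of *Astl* was lost without fl/del Spo11-Cre replicate 2 (0.41), replicate 3 (0.51) or replicate 4 (0.42), Gdf9-Cre replicate 1 (0.42) or Zp3-Cre replicate 2 (0.41). It was also lost with filterByExpr (0.50), with only the compared groups (0.50) and with summed name prefixes (0.49). That of *Rab3b* was lost without fl/del Spo11-Cre replicate 3 (0.40), Gdf9-Cre replicate 2 (0.31) or Zp3-Cre replicate 1 (0.30), and in the latter 2 settings (0.45 and 0.43). The genotype, driver and library set differ together in this comparison, and their parts cannot be told apart.

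The make-up of Rab3 mRNA differed accordingly. In TPM, the 4 Rab3 genes summed to 217 ± 10.3 in wt/fl (SD, n = 4), 168 ± 5.03 in wt/fl Spo11-Cre (n = 5), 189 ± 15.1 in fl/del (n = 4), 179 ± 9.11 in fl/del Spo11-Cre (n = 4), 254 ± 21.8 with Gdf9-Cre and 284 ± 53.6 with Zp3-Cre (n = 2 each). *Rab3d* made up 29.4% ± 3.32 of this sum in wt/fl, with libraries between 25.8% and 33.1%. In wt/fl Spo11-Cre it was 20.4% ± 1.16, in fl/del without Cre 21.5% ± 2.92 and with Spo11-Cre 21.3% ± 1.48, and no library of these groups exceeded 25.2%. With Gdf9-Cre the share of *Rab3d* was 21.7% ± 3.42, below that of wt/fl. Its mean there was 54.7 TPM beside 63.95 TPM in wt/fl, while *Rab3b* had 163 TPM beside 119 TPM. With Zp3-Cre the share of *Rab3d* was 29.3% ± 3.47. *Rab3b* was the largest part in every group, from 54.6% ± 5.65 in wt/fl to 65.1% ± 1.99 in wt/fl Spo11-Cre. *Rab3c* was at most 0.57% of the sum in any library.

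**Figure D3:**
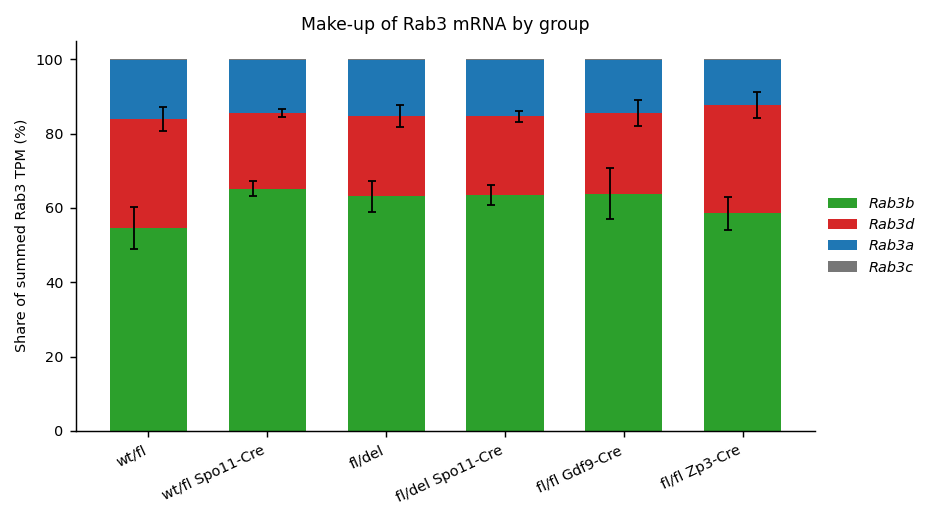
Share of each Rab3 gene in the summed TPM of Rab3a, Rab3b, Rab3c and Rab3d (y axis, percent), as the mean over the libraries of each group (x axis). Error bars are SDs of the Rab3b and Rab3d shares, and Rab3c is too small to see. The Rab3d share is 29.4% in wt/fl, between 20.4% and 21.7% in 4 groups and 29.3% with Zp3-Cre.

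Across the 21 libraries, *Rab3a* and *Rab3d* varied together (Pearson r = 0.80 of log2(CPM + 1)), as did *Rab3d* and *Astl* (r = 0.67) and *Rab3a* and *Astl* (r = 0.60). *Rab3b* was less closely related to *Rab3d* (r = 0.51) and *Rab3a* (r = 0.38). *Rab3c* had coefficients between −0.07 and 0.25 with the other members. These are descriptions over libraries that share groups and a library total. Among 13478 genes with a mean of at least 1 CPM, the pattern most like that of *Rab3d* was shown by *Tspan14*, a tetraspanin (r = 0.93), *Tmcc2* (r = 0.93) and *Herpud2* (r = 0.90). *Tspan14* had 119 ± 16.8 CPM in wt/fl (SD, n = 4), 74.5 ± 6.76 in wt/fl Spo11-Cre (n = 5), 83.6 ± 13.6 in fl/del (n = 4), 88.5 ± 8.71 in fl/del Spo11-Cre (n = 4), 118 ± 20.03 with Gdf9-Cre and 159 ± 2.89 with Zp3-Cre (n = 2 each).

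The genes most like the other members were different ones. For *Rab3a* they were *Cdc25a*, a cell cycle phosphatase (r = 0.86), *Ell* (r = 0.84) and *Dcaf12* (r = 0.83). For *Rab3b* they were *Ube2k*, a ubiquitin-conjugating enzyme (r = 0.90), *Pcbd2* (r = 0.89) and *Abl2*, a tyrosine kinase (r = 0.87). For *Astl* they were *Atp5a1*, a subunit of mitochondrial ATP synthase (r = 0.86), *Glyr1* (r = 0.86) and *Mtmr14* (r = 0.85). For *Rab27a* and *Rab3c*, with fewer counts, the highest coefficients were lower, from 0.77 to 0.79 (*Vkorc1*, *1700030J22Rik* and *Abcf1*) and from 0.70 to 0.73 (*Nrcam*, *Gm12254* and *Rpl4*).

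**Figure D4:**
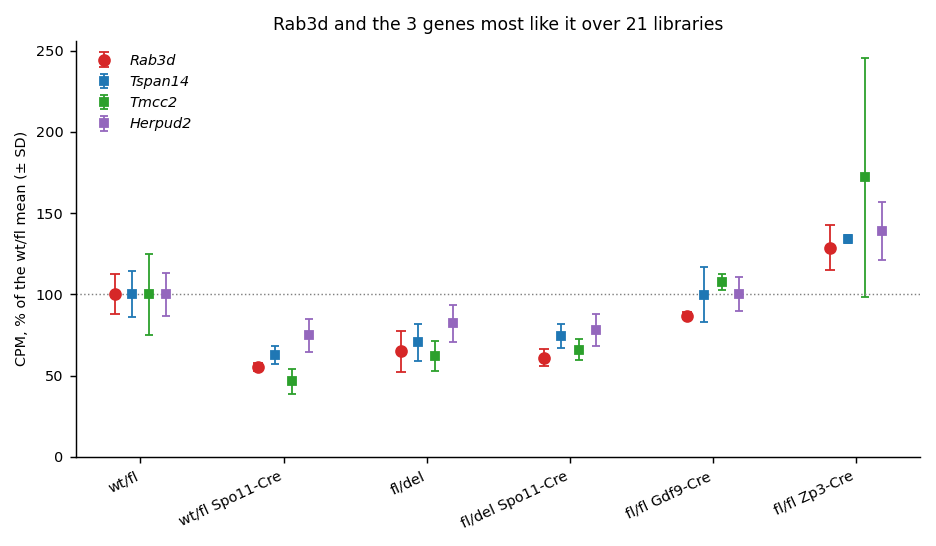
CPM as percent of the wt/fl mean (y axis, from 0) for Rab3d and the 3 genes of highest correlation with it, by group (x axis). Points are means and bars SDs over 2 to 5 libraries, and these genes were chosen for their likeness. The 4 genes lie below 100% in the 3 groups with Spo11-Cre or the deleted allele and above it with Zp3-Cre.

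The wider secretory machinery was described with a list of 58 genes chosen by function. This list, too, was drawn up with earlier results of these data known, so its p-values are not independent support. It holds 12 genes of the Rab3 and Rab27 GTPase cycle, 15 of their effectors, 6 of granule transport, 23 of membrane fusion, and the substrate and inhibitor of ovastacin. The most abundant of each part in wt/fl were *Rab3il1*, an exchange factor (60.3 ± 10.1 TPM, SD, n = 4), *Rph3al*, an effector also named Noc2 (76.7 ± 5.68), *Rab11a*, a GTPase of recycling vesicles (220.2 ± 14.98), *Vamp8*, a vesicle SNARE (244 ± 30.5), and *Zp2*, the substrate of ovastacin (3497 ± 789). Of the cycle genes, 8 of 12 had at least 10 TPM in wt/fl, as did 4 of 15 effectors and 10 of 23 fusion genes. Of the 58 genes, 55 had counts in at least 3 libraries and were tested.

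In the Spo11-Cre background, the other secretory genes had log2 fold changes centred near 0, and in the edgeR model with this filter and no replicate block, no list gene was called in any of the 4 comparisons. At an unadjusted p under 0.05, 3 list genes were higher and 4 lower in wt/fl Spo11-Cre than in wt/fl, 3 and 2 for fl/del, 3 and 7 for fl/del Spo11-Cre, and 0 and 8 when the latter 2 groups were compared. In all, these were 12.7%, 9.09%, 18.2% and 14.5% of the 55 tested list genes, beside 15%, 8.52%, 10.4% and 8.32% of all genes. DESeq2 called *Sytl4*, *Napa* and *Tbc1d10a* lower in wt/fl Spo11-Cre (adjusted p = 0.0276, 0.0457 and 0.044) and *Syt1*, a calcium sensor of vesicle fusion, lower with than without Spo11-Cre in fl/del oocytes (adjusted p = 0.029), and none in the other 2. The median log2 fold change of the 55 genes was −0.07, −0.03, −0.08 and −0.06 in the 4 comparisons, beside 0.03, 0.00, 0.01 and 0.01 over all genes.

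In the fl/fl oocytes, *Rab11a* rose and *Napa* and *Fetub* fell against wt/fl in the edgeR test. They are 1 gene higher and 2 lower of 55, where 1.02% of all genes were called higher and 1.77% lower. The list's median log2 fold change was −0.06 beside −0.03 over all genes. *Rab11a* had 268 ± 16.1 CPM in wt/fl (SD, n = 4), 397 ± 32.1 with Gdf9-Cre and 345 ± 28.3 with Zp3-Cre (n = 2 each), with a log2 fold change of 0.38 (SE 0.10, edgeR adjusted p = 0.0202). All 4 fl/fl libraries exceeded the highest library of the other groups, at 292 CPM. Against fl/del Spo11-Cre alone, 4.03% of all genes lay higher without overlap, and the share against all other groups was not counted. Its call was lost without wt/fl replicate 1 (adjusted p = 0.0577) or replicate 4 (0.0652), without Gdf9-Cre replicate 2 (0.0886) and without Zp3-Cre replicate 1 (0.0516).

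*Napa*, which encodes the SNAP that takes SNARE complexes apart together with NSF, had 113 ± 16.8 CPM in wt/fl, 82.2 ± 6.97 with Gdf9-Cre and 77.9 ± 10.5 with Zp3-Cre. Its log2 fold change was −0.59 (SE 0.12, edgeR adjusted p = 0.00184), and its call was kept in the 8 other settings and the 8 fits without 1 library. A lower level of *Napa* was not particular to the fl/fl oocytes. Its libraries had 80.3 to 98.6 CPM in wt/fl Spo11-Cre, 79.0 to 102 in fl/del and 83.9 to 112 in fl/del Spo11-Cre. Each range overlapped that of the fl/fl libraries (70.5 to 87.1). The log2 fold changes of these groups against wt/fl were −0.31, −0.31 and −0.18, not called by edgeR. *Fetub* encodes fetuin-B, an inhibitor of ovastacin. It had 178 ± 20.8 CPM in wt/fl, 115 ± 2.70 with Gdf9-Cre and 162 ± 1.99 with Zp3-Cre, with a log2 fold change of −0.47 (SE 0.11, edgeR adjusted p = 0.00544). The Zp3-Cre libraries, at 160.1 and 163 CPM, lay within the range of wt/fl, so the lower level was that of the Gdf9-Cre libraries. The calls of *Rab11a* and *Fetub* were lost with libraries of a shared name prefix summed (adjusted p = 0.189 and 0.0647) and in the fit of the compared groups alone (0.126 and 0.0856).

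Against fl/del Spo11-Cre, *Rab11a* was again higher in the fl/fl oocytes (log2 fold change 0.41, SE 0.10, edgeR adjusted p = 0.00798) and *Fetub* lower (−0.38, SE 0.11, edgeR adjusted p = 0.0345). *Napa* had a log2 fold change of −0.41 (SE 0.12, edgeR adjusted p = 0.0521). In this comparison, 1.21% of all genes were called higher and 1.69% lower. The call of *Rab11a* was lost with summed name prefixes (adjusted p = 0.13) and with only the compared groups (0.0681). That of *Fetub* was lost in both (0.125 and 0.157) and held in 2 of 8 fits without 1 library, with adjusted p from 0.0221 to 0.16. It was lost without fl/del Spo11-Cre replicate 1, 2 or 3, either Gdf9-Cre library or Zp3-Cre replicate 1. The level of *Zp2* was 3872.8 ± 828 CPM in wt/fl and between 3783 and 4551 CPM on average in the other groups, and it was not called in the edgeR model of all libraries without a replicate block. With the block it was called higher in fl/del than in wt/fl (log2 fold change 0.25, edgeR adjusted p = 0.0204). Without Zp3-Cre replicate 2 it was called lower in the fl/fl oocytes than in wt/fl (−0.46, edgeR adjusted p = 0.0127) and than in fl/del Spo11-Cre (−0.54, edgeR adjusted p = 0.00268).

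**Figure D5:**
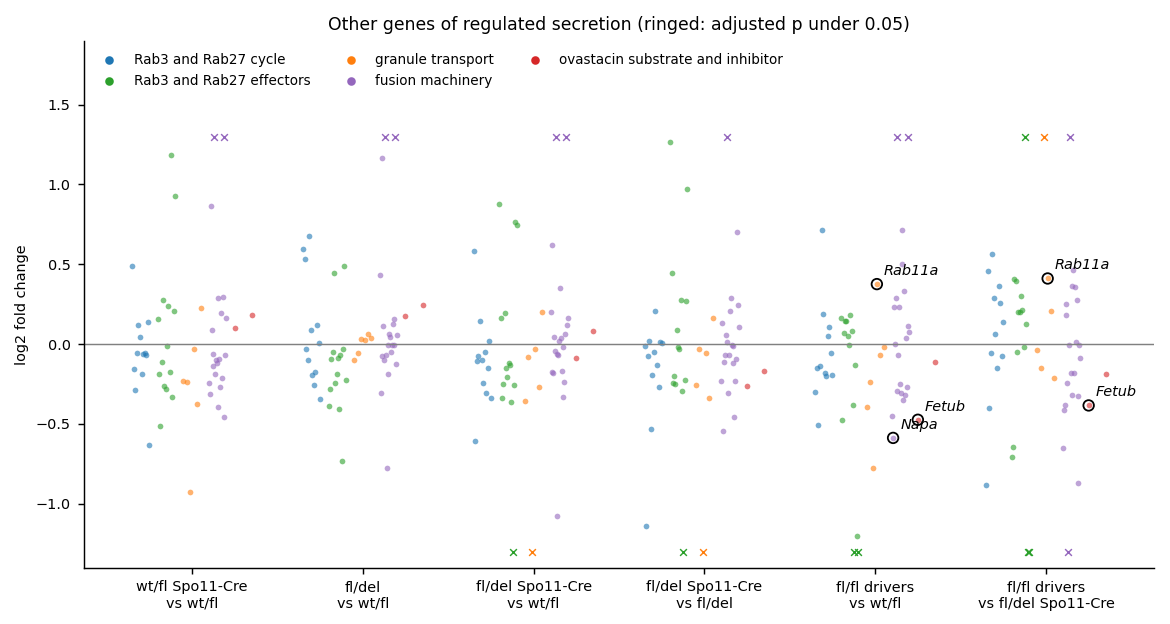
Log2 fold change (y axis) of the 55 tested secretory list genes in 6 comparisons (x axis), coloured by part of the list. Ringed genes have an adjusted p under 0.05 in edgeR, and crosses at the upper and lower edge stand for genes beyond 1.3 in either direction, whose mean level was at most 2.43 CPM. The rings are absent from the first 4 comparisons and mark Rab11a, Napa and Fetub in the fl/fl comparison with wt/fl.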

How the data were processed

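Reads of full-length cDNA were trimmed with fastp, aligned to GRCm38 with HISAT2 2.2.1 and counted per gene with featureCounts 2.0.3 by the authors. Their deposited counts are whole numbers per gene over all exons, without normalization. The deposited TPM values were also made by the authors, by a method not given in the sources used here. CPM were computed from library totals of 7205010 to 18454549 counts. Counts of the other table, made with exon 22 of *Kif11*, were lower (median ratio 1.95), and served as an alternative. Why the tables differ is not given in the sources used here.

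The labels' genotype and Cre driver set the groups. Gene IDs were matched to symbols for 54079 of 54232 genes. The quasi-likelihood model of edgeR 4.0.16 (R 4.3.3, TMM scaling) was fitted to all genes that had counts in 3 or more libraries, over 17 libraries for the Spo11-Cre background and 21 for the fl/fl comparisons, with Benjamini-Hochberg adjustment over all genes. The study used DESeq2, and DESeq2 1.42.0 was run as an alternative. P-values set a difference against the spread between these libraries, which is partly that within a mouse and may be partly technical. The models treated libraries as independent, although a mouse gave 1 or 2 of them. Each n counts libraries, and the labels do not give the number of mice per group. The members, the lists and the tests were chosen with earlier results of these data known. Named genes are the members, list genes with an adjusted p under 0.05 in any comparison (up to 6 per comparison), the most abundant gene of each part of the list in wt/fl, *Kif11*, and the 3 genes of highest correlation with each member. Other list genes were named after their values were seen. No pair of libraries agreed within sampling noise. The scripts were tested on simulated data. Over the 6 comparisons, edgeR recovered 53% to 67% of simulated 2-fold changes and 79% to 90% of 4-fold changes, with 8 to 17 false calls. A change that was not called may therefore still be present. Tables and figures were made with Python 3.11.15, pandas 2.3.3, numpy 2.4.6 and matplotlib 3.10.9. Alternatives were the tool, scaling, count filter, samples in the fit, count table, summed name prefixes, replicate block and leaving out each library.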

Additional observations from a re-analysis of the deposited data

Results flagged for a closer look

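Among 25 sets of 4 or 5 libraries in which a member had a count, 2 held a library far from the others by Dixon's ratio, and chance flags about 1 in 20. *Rab3b* in fl/del Spo11-Cre replicate 3 stood at 149 CPM, while the other 3 libraries of that group lay between 171 and 174 CPM. *Rab27b* in wt/fl Spo11-Cre replicate 3 stood at 0.108 CPM (2 counts), while the other libraries were at 0.

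The position of *Rab3d* relative to wt/fl was opposite for the 2 drivers of the fl/fl oocytes. Both Gdf9-Cre libraries lay below the wt/fl mean, at 86.9% of it on average, and both Zp3-Cre libraries above it, at 129%. The deleted allele also went with opposite positions. Without Cre, the 4 fl/del libraries lay below the wt/fl mean, at 65.1% of it. With Spo11-Cre, the 4 fl/del libraries lay above the mean of wt/fl Spo11-Cre, at 111% of it, although the lowest of them (61.1 CPM) was within the range of that group (58.1 to 64.3 CPM). The flag asks only that all libraries of a group lie on one side of the mean of the group compared, and on the other side in the second contrast. The share of all genes that would be flagged so was not counted. These differences were not tested.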

How the results depend on the processing

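No other setting, and no fit without 1 library, turned the direction of a called log2 fold change of a member, and all 288 values under other settings were within 1 SD of those reported. The calls of *Rab3d* in wt/fl Spo11-Cre and fl/del Spo11-Cre against wt/fl, and in the fl/fl oocytes against fl/del Spo11-Cre, were kept in each of these fits. Over them, its log2 fold changes ranged from −0.88 to −0.77, from −0.78 to −0.65 and from 0.68 to 0.78. For *Rab3c*, 7 values moved by more than 1 SD when a library was left out, while the other 287 values of the members moved less. At 6 to 49 counts per library, depth limits what can be read from *Rab3c*, and *Rab27b* was at the detection limit.

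With DESeq2, 931, 25, 166 and 90 genes were called in the 4 comparisons of the Spo11-Cre background in the order of the report (wt/fl Spo11-Cre, fl/del and fl/del Spo11-Cre against wt/fl, then fl/del Spo11-Cre against fl/del), and 1109 and 1065 in the fl/fl comparisons with wt/fl and with fl/del Spo11-Cre. The edgeR counts were 491, 5, 44, 54, 647 and 673. DESeq2 called 3 secretory genes in the first comparison, 1 in the last of these 4 and 5 in each fl/fl comparison, and 2 members in the first. Without a count filter, 742, 80, 185 and 134 genes were called in the first 4, with 2, 0, 1 and 1 secretory genes and 2 members in the first. With filterByExpr, fl/del had 2 genes and no member (0) called against wt/fl, and fl/del Spo11-Cre 29 genes. In the third comparison the exon 22 table gave 83 genes.

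With libraries of a shared name prefix summed, 233 and 299 genes were called in the 2 fl/fl comparisons, with 1 and 0 secretory genes and 0 and 1 members, and 0 members in fl/del against wt/fl. In fits of the compared groups alone, these were 238 and 323 genes, 1 and 0 secretory genes, and 0 and 1 members. The cause of these changes was not tested.

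Libraries of different groups with the same replicate number did not deviate together (correlations from −0.08 to 0.08), so the numbers give no pairing. With the replicate block, 96, 230 and 143 genes were called in the 3 comparisons after the first, 1 secretory gene (*Zp2*, higher) in fl/del and 0 members in the fl/fl comparison with wt/fl.

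Leaving out 1 library gave 179 to 575, 1 to 18, 30 to 71, 37 to 60, 303 to 1353 and 416 to 1263 genes in the 6 comparisons. The count over all genes moved by over 1.5 times without wt/fl replicate 2 (179), wt/fl replicate 4 (266) or wt/fl Spo11-Cre replicate 5 (263) in the first comparison, without wt/fl replicate 3 (10), fl/del replicate 1 (18) or fl/del replicate 3 (1) in the second, and without fl/del Spo11-Cre replicate 1 (71) in the third. In the fl/fl comparison with wt/fl it did so without wt/fl replicate 2 (408), Gdf9-Cre replicate 2 (392), Zp3-Cre replicate 1 (303) or Zp3-Cre replicate 2 (1353), and in that with fl/del Spo11-Cre without fl/del Spo11-Cre replicate 2 (416) or replicate 3 (441), Zp3-Cre replicate 1 (424) or Zp3-Cre replicate 2 (1263). For the secretory list the ranges were 0 to 1 in the first, 0 in the next 3, 2 to 9 and 1 to 5, and both highest values (9 and 5) were those without Zp3-Cre replicate 2. For the members they were 1 to 2, 0 to 1, 1, 0, 0 to 1 and 1 to 3.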
